A study of Rattus norvegicus with 11 samples.

Results

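Transcripts of the fibrillar collagens, fibronectin and periostin were followed in right ventricles from rats of the Sprague Dawley strain. The genes were chosen by name, as a list of 5 Ensembl IDs, Col1a1, Col1a2, Col3a1, Fn1 and Postn, and 4 of the 5 had a row among the 37550 features of the count table. The ID of Col1a2 (ENSRNOG00000011292) had no row of its own in the count table used here, and Col1a2 was not analysed here. Neither table pairs IDs with gene names, so the symbols are those given with the list: ENSRNOG00000003897 for Col1a1, ENSRNOG00000003357 for Col3a1, ENSRNOG00000014288 for Fn1 and ENSRNOG00000012660 for Postn.

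One group received monocrotaline, a plant alkaloid that injures the vessels of the rat lung and so loads the right ventricle, and the other received vehicle. The vehicle group had 6 libraries (replicates 1 to 6) and the monocrotaline group 5 (replicates 1, 2, 3, 4 and 6), each from total RNA of right ventricle freed of left ventricle and vessels. The labels give no sex, age, dose or time after injection, and do not tie libraries to animals, so a p-value here measures the spread among libraries, which may be technical. The series title places the comparison in experimental right ventricular failure and names fibrotic change among its subjects.

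Fibrillar collagens are secreted as triple-helical procollagens, trimmed outside the cell and assembled into fibrils. Col1a1 and Col1a2 encode the chains of type I collagen, the stiff main collagen of heart muscle, and Col3a1 encodes the chain of type III collagen, which forms finer fibrils with it. Fibronectin is laid down early in a remodelling matrix and links collagen to cell-surface integrins. Periostin is a secreted matricellular protein that binds collagen and integrins, and in the adult heart it is known as a marker of activated fibroblasts. In whole tissue, more cells of a type and more RNA per cell cannot be told apart, and markers of fibroblasts or other cells, which would also check the labelled tissue, were not analysed here because the IDs are not paired with names.

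The periostin promoter is shown because Postn had the largest fold difference of the set and was the only gene of the 4 with an entry in the promoter table. RefSeq, on assembly GRCr8, gives these 250 bases before the start of Postn at chr2:140677811-140678060, plus strand, printed 5′ to 3′. Capitals mark a TATA box core, TATAAA, and an E-box, CAGCTG, the kind of site that basic helix-loop-helix factors bind.

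Postn: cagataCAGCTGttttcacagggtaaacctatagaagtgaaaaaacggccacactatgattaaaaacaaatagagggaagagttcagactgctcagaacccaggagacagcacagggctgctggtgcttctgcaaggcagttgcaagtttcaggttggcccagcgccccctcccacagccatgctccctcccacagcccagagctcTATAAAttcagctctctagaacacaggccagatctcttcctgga

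TATAAA was searched on both strands and starts 44 bases before the start site of Postn. It occurs in 12.9% of the 33469 promoter windows of this length. CAGCTG, which reads the same on both strands, starts 244 bases before the start site and occurs in 11.97% of the windows. These are matches of letters only, and binding was not measured.

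Total counts ran from 9581924 to 14438355 per library. Reads fell on 28209 to 30593 features in 3 libraries (vehicle replicates 5 and 6, monocrotaline replicate 3) and on 19825 to 21524 in the other 8, called the libraries of lower detection below. Levels are CPM, counts scaled to a common library size, with TMM factors correcting for library composition. The lowest count of any of the 4 genes was 258, for Postn in vehicle replicate 3, with an exact 95% Poisson interval of 227 to 291 that covers counting error only. The spread between libraries was wider than the counting error for each gene.

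All 4 genes were higher with monocrotaline, by 2.48-fold for Col3a1, 3.85-fold for Col1a1, 5.52-fold for Fn1 and 23.7-fold for Postn. All 4 passed the low-count filter, and all 4 were called higher by edgeR's quasi-likelihood test at a false discovery rate of 0.05, where 12.7% of 15099 tested features were called higher. More than 2-fold higher and called were these 4 and 4.78% of all features. The groups were free of overlap, with monocrotaline above, for 3 of the 4 genes and for 6% of all features. The set was selected on this same contrast, with the differences between the groups known. The differences are therefore given as a description, no p-value is printed for them, and nothing is read from these counts. The median log2 fold change was 2.21 over the 4 genes and −0.01 over the tested features. On library totals with no factor, the calls over all features shifted from 1917 higher and 1678 lower to 3584 and 979, and the median of the tested features to 0.21. The log2 fold changes were then 2.19 for Col1a1, 1.55 for Col3a1, 2.70 for Fn1 and 4.80 for Postn.

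**Figure D1:**
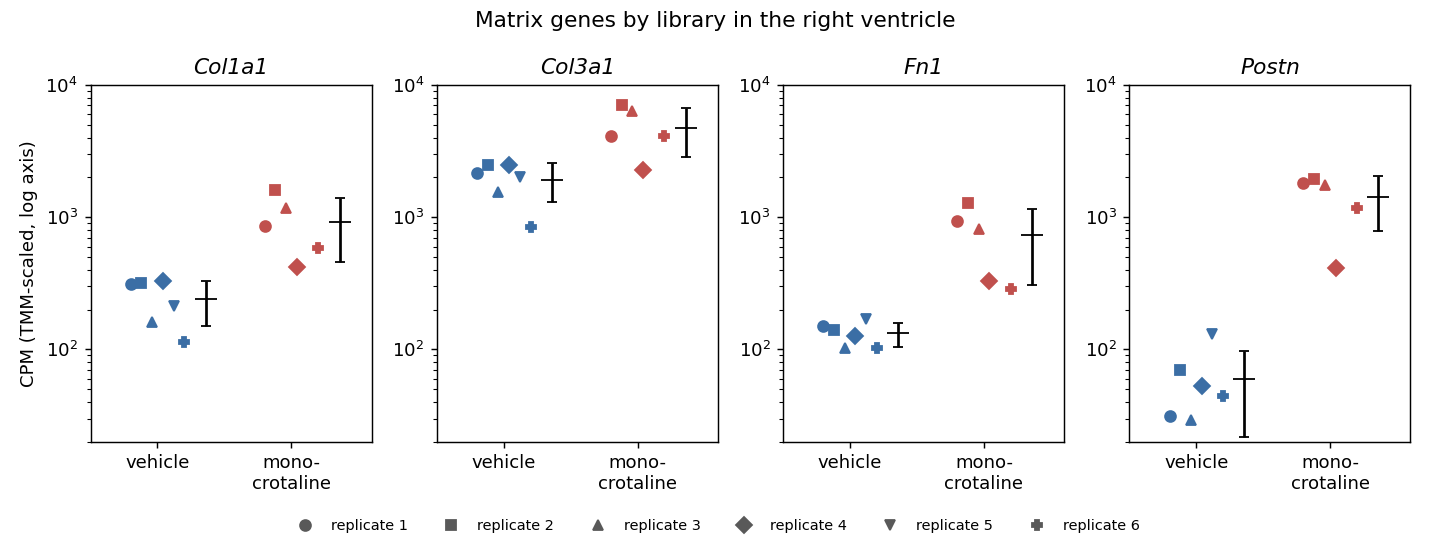
CPM (TMM-scaled, log axis) of Col1a1, Col3a1, Fn1 and Postn in each library, with vehicle in blue and monocrotaline in red, marker shapes for replicate numbers, and black bars for the mean ± SD of each group (n = 6 and n = 5). Monocrotaline replicate 4 sits lowest of its group for Col1a1, Col3a1 and Postn, and only Col3a1 shows overlap between the groups.

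Col1a1, the chain that supplies most of type I collagen, ran from 114 to 328 CPM in the vehicle libraries, with a median of 262. In monocrotaline replicates 1, 2, 3, 4 and 6 it stood at 863, 1601, 1166, 419 and 585 CPM. The groups did not overlap, but replicate 4 lay only 1.28-fold above the highest vehicle library, while replicate 2 lay 4.89-fold above it. Means were 241 ± 91.1 CPM (SD, n = 6) and 927 ± 472 CPM (SD, n = 5). The log2 fold change was 1.95 (SE 0.36). In the 8 libraries of lower detection the log2 fold change was 1.63.

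Col3a1, the type III chain, ran from 847 to 2500 CPM with vehicle, with a median of 2088. With monocrotaline, replicates 1, 2, 3, 4 and 6 had 4092, 7048, 6315, 2257 and 4100 CPM. It was the one gene of the set whose groups overlapped: monocrotaline replicate 4 stood at 0.903 times the highest vehicle library, and the other 4 monocrotaline libraries lay above all vehicle libraries. Means were 1923 ± 631 CPM (SD, n = 6) and 4762 ± 1924 CPM (SD, n = 5). The log2 fold change was 1.31 (SE 0.32). Col3a1 was also the only one of the 4 that lost its call under an alternative: it was not called in the 8 libraries of lower detection, with a log2 fold change of 1.01, nor at a false discovery rate of 0.01. Without monocrotaline replicate 4 its log2 fold change was 1.49.

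Fn1, encoding fibronectin, was the most even of the 4 in vehicle hearts. It ran from 102 to 169 CPM there, with a median of 134, and its coefficient of variation was 20.3%, against 32.8% for Col3a1, 37.9% for Col1a1 and 63.5% for Postn. With monocrotaline the libraries fell apart into high and low values: replicates 1, 2 and 3 had 934, 1276 and 815 CPM, and replicates 4 and 6 had 331 and 287 CPM. Even the lowest of these lay 1.70-fold above the highest vehicle library. Means were 132 ± 26.7 CPM (SD, n = 6) and 728 ± 419 CPM (SD, n = 5). The log2 fold change was 2.46 (SE 0.35), and 2.44 in the libraries of lower detection. Fn1 was the only gene of the set for which monocrotaline replicate 6, not replicate 4, was lowest.

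Postn, encoding periostin, had the largest difference of the set. It ran from 29.0 to 131 CPM with vehicle, with a median of 48.7, and the highest value was that of vehicle replicate 5. In monocrotaline replicates 1, 2, 3, 4 and 6 it stood at 1809, 1934, 1745, 411 and 1167 CPM. Replicates 1, 2 and 3 were within a narrow range, and replicate 4, with 24.7% of the mean of the other monocrotaline libraries, was still 3.14-fold above the highest vehicle library. Means were 59.7 ± 37.9 CPM (SD, n = 6) and 1413 ± 633 CPM (SD, n = 5). The log2 fold change was 4.56 (SE 0.49), and 4.86 in the libraries of lower detection. Of the 15099 tested features, 2 had a larger log2 fold change than Postn, 63 a larger one than Fn1, 144 a larger one than Col1a1 and 461 a larger one than Col3a1.

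**Figure D2:**
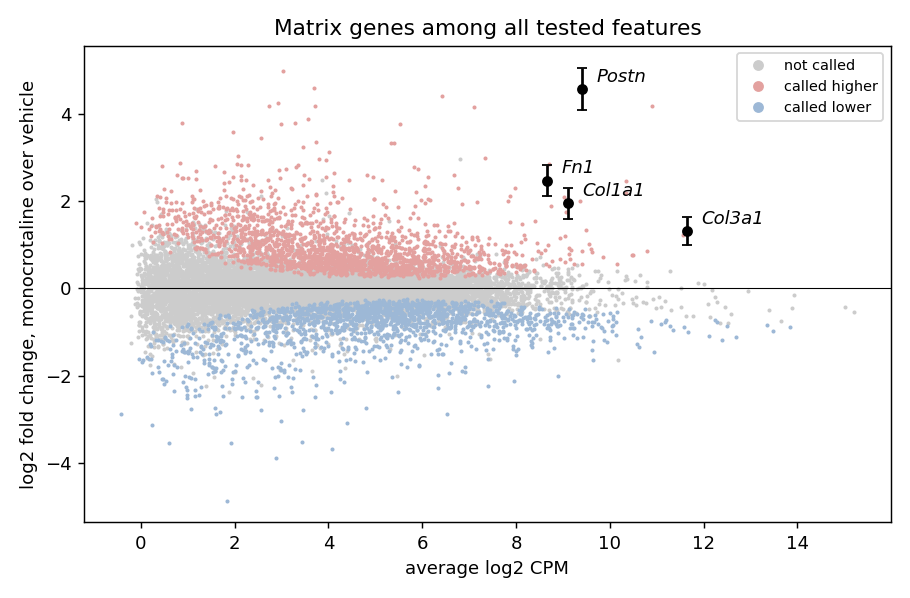
Log2 fold change (monocrotaline over vehicle) against average log2 CPM for the 15099 tested features, coloured by the edgeR call at a false discovery rate of 0.05, with the 4 matrix genes in black and bars of 1 SE. Postn, at a log2 fold change of 4.56, lies above all but 2 features, and Col3a1 has the smallest fold change of the 4, at 1.31.

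The authors' deposited table gives log2 fold changes of 1.94 for Col1a1, 1.30 for Col3a1, 2.46 for Fn1 and 4.56 for Postn. These are from the same libraries and are no independent measurement.

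The 4 genes together held a small but larger share of all reads with monocrotaline. Before any scaling factor, they took from 0.102% to 0.287% of the counts of a vehicle library, and 0.828%, 1.29%, 1.27%, 0.337% and 0.627% in monocrotaline replicates 1, 2, 3, 4 and 6. The group means were 0.221% ± 0.0723 (SD, n = 6) and 0.869% ± 0.411 (SD, n = 5). No monocrotaline library reached down to the vehicle range, with replicate 4 the nearest.

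The make-up of these reads also differed between the groups. Of the reads of the 4 genes, Col3a1 supplied 81.2% ± 2.75 in the vehicle libraries (SD, n = 6) and 61.7% ± 5.57 in the monocrotaline libraries (SD, n = 5). Postn supplied 2.67% ± 1.58 (SD, n = 6) and 17.6% ± 4.17 (SD, n = 5). Col1a1 supplied 10.1% ± 1.29 and 11.6% ± 1.46, and Fn1 6.01% ± 1.79 and 9.07% ± 2.87 (SD, n = 6 and n = 5). These are shares of reads, and transcript length was not taken into account, so they order no gene above another within a library.

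Reads of each gene were then set against those of Col3a1 in the same library, a ratio in which depth and scaling factor cancel. For each 100 reads of Col3a1, Postn had between 1.45 and 6.50 reads in the vehicle libraries and 44.2, 27.4, 27.6, 18.2 and 28.5 in monocrotaline replicates 1, 2, 3, 4 and 6. The groups lay well apart, also for replicate 4, whose Col3a1 level was in the vehicle range. The log2 ratios were −5.13 ± 0.86 (SD, n = 6) and −1.83 ± 0.45 (SD, n = 5), a difference of 3.29.

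Col1a1 gained on Col3a1 by less. There were 10.5 to 14.5 reads of Col1a1 per 100 of Col3a1 in the vehicle libraries and 21.1, 22.7, 18.5, 18.6 and 14.3 in monocrotaline replicates 1, 2, 3, 4 and 6. Replicate 6 fell inside the vehicle range, and the other 4 lay above it. The log2 ratios were −3.01 ± 0.19 (SD, n = 6) and −2.41 ± 0.26 (SD, n = 5), a difference of 0.60.

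Fn1 also gained on Col3a1 in most monocrotaline libraries, with more spread. It had 5.09 to 12.1 reads per 100 of Col3a1 in the vehicle libraries, the highest in vehicle replicate 6, and 22.8, 18.1, 12.9, 14.6 and 6.99 in monocrotaline replicates 1, 2, 3, 4 and 6. Again replicate 6 was inside the vehicle range and the other 4 above it. The log2 ratios were −3.80 ± 0.44 (SD, n = 6) and −2.83 ± 0.64 (SD, n = 5), a difference of 0.97.

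**Figure D3:**
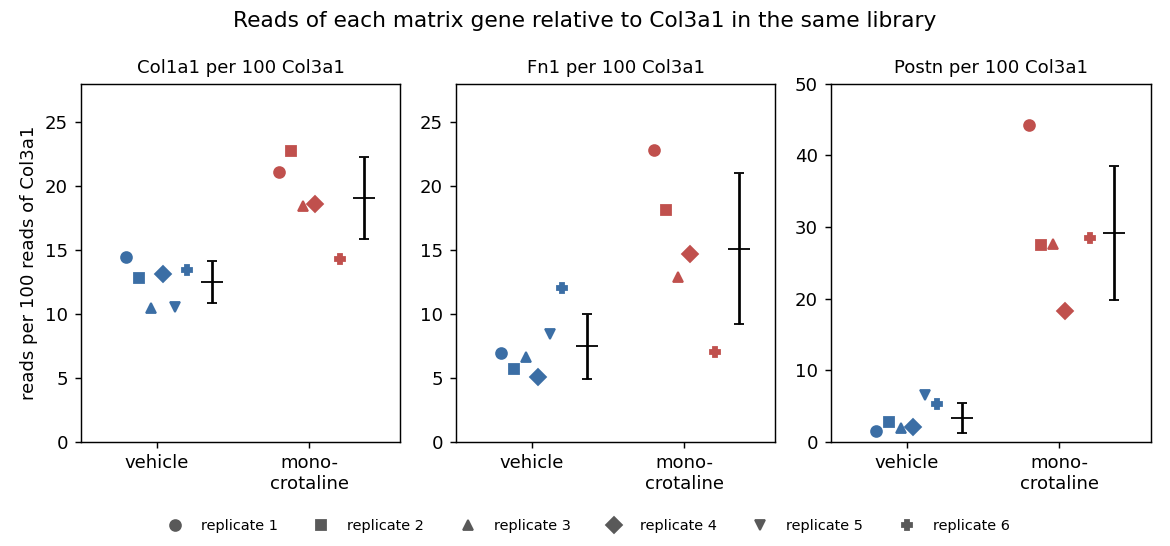
Reads of Col1a1, Fn1 and Postn per 100 reads of Col3a1 in the same library, for vehicle (blue) and monocrotaline (red), with marker shapes for replicate numbers and black bars for the mean ± SD (n = 6 and n = 5). The groups are separate for Postn, while monocrotaline replicate 6 lies among the vehicle libraries for Col1a1 and Fn1.

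The monocrotaline libraries were not raised to the same degree, and the genes did not place them in the same order. Replicate 2 was highest for all 4 genes. Relative to the vehicle mean, replicate 4 was 1.74-fold higher for Col1a1, 1.17-fold for Col3a1, 2.51-fold for Fn1 and 6.89-fold for Postn, while replicate 2 was 6.66-fold, 3.67-fold, 9.67-fold and 32.4-fold higher. Replicate 6 was level with replicate 1 for Col3a1 (2.13-fold each). It was second lowest for Col1a1 (2.43-fold) and Postn (19.6-fold), and lowest for Fn1 (2.17-fold). Without replicate 4 the log2 fold changes were 2.13 for Col1a1, 2.65 for Fn1 and 4.81 for Postn. Calls over all features then went from 1917 higher and 1678 lower to 2409 and 2410. Whether the low values of replicate 4 are particular to the matrix genes was not tested.

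Within each group the 4 genes varied more between libraries than most features did. The SD of log2 CPM over the 6 vehicle libraries was 0.62 for Col1a1, 0.59 for Col3a1, 0.30 for Fn1 and 0.80 for Postn, against a median of 0.24 over the tested features. Smaller SDs were found in 89.3%, 88.0%, 61.1% and 94.1% of the features. Over the monocrotaline libraries the SDs were 0.77, 0.65, 0.96 and 0.93, against a median of 0.31. There, 91.5%, 86.6%, 95.7% and 95.5% of the features had a smaller SD.

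Whether libraries with more of one transcript also had more of another was examined inside the groups, since a correlation over both groups would repeat the group difference. The mean of each group was subtracted from the log2 CPM values, and the 11 deviations were correlated, with exact two-sided permutation of libraries within each group (86400 arrangements) and Benjamini-Hochberg adjustment over the 6 pairs. The subtraction removes the difference between the group means by which the genes were proposed. It does not remove differences between monocrotaline libraries in how far such genes were raised. The p-values may therefore not be independent of the choice of genes. Monocrotaline replicate 4 was below its group mean for Col1a1, Col3a1, Fn1 and Postn, by log2 deviations of −0.99, −0.97, −0.91 and −1.59. The median r over the pairs was 0.66, and 0.51 without that library.

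Col1a1 and Col3a1 varied in near lockstep. Pearson's r of their deviations was 0.95 (n = 11, exact permutation p = 3.5e-05, adjusted p = 2.1e-04) and Spearman's rho was 0.92 (exact permutation p = 6.4e-04, adjusted p = 0.0038). Vehicle replicate 6 and monocrotaline replicate 4, the libraries farthest from the median, were low for both, and without them r was 0.93 (n = 9, exact permutation p = 0.0010). In the 6 vehicle libraries alone, r was 0.95 (exact permutation p = 0.0014, adjusted p = 0.0083), the smallest p that 720 arrangements can give, and rho was 1, so both genes ranked those libraries identically. Without vehicle replicates 3 and 6, r over the remaining 4 was 0.82. Among 15098 other features, only 2 had a higher r with Col1a1 than Col3a1 had.

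Fn1 followed Col1a1 less closely. Their r was 0.78 (n = 11, exact permutation p = 0.0088, adjusted p = 0.026) and rho was 0.70 (exact permutation p = 0.039, adjusted p = 0.079). Without vehicle replicate 6 and monocrotaline replicate 4, r was 0.73 (n = 9, exact permutation p = 0.048). In the vehicle libraries alone r was 0.66 (n = 6, exact permutation p = 0.17, adjusted p = 0.26), but it turned to −0.86 without vehicle replicates 3 and 6, so in vehicle hearts the relation rested on those libraries. The adjusted p of the 11 libraries was 0.11 without monocrotaline replicate 2 and 0.056 without monocrotaline replicate 1.

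Fn1 and Postn had an r of 0.66 (n = 11, exact permutation p = 0.018, adjusted p = 0.035) and a rho of 0.76 (exact permutation p = 0.0097, adjusted p = 0.029). Without monocrotaline replicates 4 and 6, r was 0.55 (n = 9, exact permutation p = 0.14), with fewer libraries to test it. Without replicate 4 alone r was 0.51 (adjusted exact permutation p = 0.035). Without replicate 6 alone it was 0.81 (adjusted exact permutation p = 0.022). Leaving out vehicle replicate 3 or 5, or monocrotaline replicate 1, 2 or 3, raised the adjusted p past the threshold, to between 0.061 and 0.11. It was 0.15 in the 8 libraries of lower detection (r = 0.67, exact permutation). In the vehicle libraries alone r was 0.64 (n = 6, exact permutation p = 0.18, adjusted p = 0.26). It was 0.48 without vehicle replicates 3 and 6, and −0.11 without vehicle replicates 3 and 5.

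Between Col3a1 and Fn1 r was 0.65 (n = 11, exact permutation p = 0.037, adjusted p = 0.055) and rho 0.63 (exact permutation p = 0.089, adjusted p = 0.089). This pair stayed just short of the threshold. Without vehicle replicate 6 and monocrotaline replicate 4, r was 0.57 (n = 9, exact permutation p = 0.18). Without monocrotaline replicate 6 alone it was 0.78 with an adjusted exact permutation p of 0.022. In the vehicle libraries alone r was 0.69 (n = 6, exact permutation p = 0.13, adjusted p = 0.26). It turned to −0.95 without vehicle replicates 3 and 6, so here too the relation in vehicle hearts rested on those libraries.

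Over the 11 libraries, neither correlation of Postn with a collagen passed the threshold inside the groups, and the values depended on the libraries included. With Col1a1 its r was 0.53 (n = 11, exact permutation p = 0.12, adjusted p = 0.12) and its rho 0.57 (exact permutation p = 0.087, adjusted p = 0.089). With Col3a1 its r was 0.59 (n = 11, exact permutation p = 0.088, adjusted p = 0.10) and its rho 0.58 (exact permutation p = 0.078, adjusted p = 0.089). Both values leaned on monocrotaline replicate 4: without that library they were 0.27 and 0.32, and without it and vehicle replicate 6 they were 0.25 and 0.36. Without vehicle replicate 6 alone, the r with Col3a1 was 0.70 with an adjusted exact permutation p of 0.0496. In the 8 libraries of lower detection the r with Col3a1 was 0.87 (adjusted exact permutation p = 0.042), past the threshold, and that with Col1a1 was 0.80 (adjusted exact permutation p = 0.076). Vehicle replicates 5 and 6 and monocrotaline replicate 3 are not among those libraries. In the vehicle libraries alone r was 0.15 with Col1a1 (n = 6, exact permutation p = 0.76) and 0.28 with Col3a1 (n = 6, exact permutation p = 0.57), both with adjusted p-values of at least 0.68. There, vehicle replicate 5 had the most Postn, at 131 CPM, with 211 CPM of Col1a1, below the vehicle median, and vehicle replicate 1 had 31.4 CPM of Postn with 313 CPM of Col1a1. Whether the r of Col1a1 and Col3a1 differs from those with Postn was not tested, and with 5 monocrotaline libraries no correlation was computed for that group alone.

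**Figure D4:**
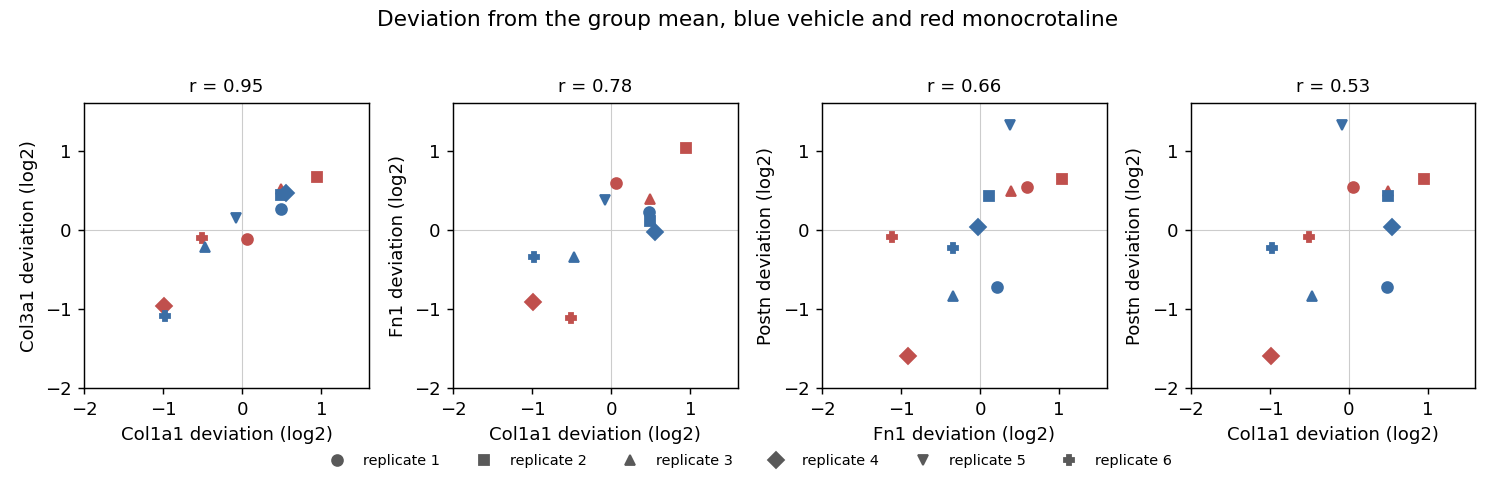
Deviations from the group mean in log2 CPM for 4 pairs of matrix genes, 1 point per library, vehicle in blue and monocrotaline in red, with marker shapes for replicate numbers and Pearson's r (n = 11) above each panel. Col1a1 and Col3a1 fall along a line (r = 0.95). Col1a1 and Postn scatter more widely (r = 0.53), with vehicle replicate 5 high for Postn but not for Col1a1. That library is also the highest of the vehicle group for Fn1, and it is not one of the libraries of lower detection.

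Set against all features, few matched a matrix gene closely. An r of at least 0.8 inside the groups was reached with Col1a1 by 1.05% of 15098 features, with Col3a1 by 1.13%, with Fn1 by 1.03% and with Postn by 0.835%. Of the other 3 genes of the set, 1 reached it with Col1a1 and 1 with Col3a1, which are each other, and 0 reached it with Fn1 or with Postn. For Postn, 4.48% of features had a higher r than Fn1 had, 7.68% a higher r than Col3a1 had and 10.6% a higher r than Col1a1 had. These are descriptions over features that share the same 11 libraries.

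The features nearest to the mean pattern of the 4 genes inside the groups, among Ensembl IDs with an average log2 CPM of at least 1, were ENSRNOG00000010832 (r = 0.96, n = 11) and ENSRNOG00000017869 (r = 0.96, n = 11), both picked for this likeness and so without a test. ENSRNOG00000010832 had 13.3 ± 2.70 CPM with vehicle (SD, n = 6) and 22.6 ± 9.65 CPM with monocrotaline (SD, n = 5), and edgeR did not call it. ENSRNOG00000017869 had 16.6 ± 2.52 CPM (SD, n = 6) and 30.0 ± 7.37 CPM (SD, n = 5), and edgeR called it higher with a log2 fold change of 0.85. Both had a lower r with Postn, 0.75 each, than with Col1a1, 0.91 and 0.87. Postn was itself the least like the mean of the other 3 genes (r = 0.64, against 0.87 for Col1a1). The lower r with Postn was thus partly set by the way the features were picked. The files do not pair these IDs with names.

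Measures of the libraries themselves were set beside the genes in the same way. Inside the groups, the TMM factor had an r of 0.57 with Col1a1, 0.60 with Col3a1, 0.59 with Fn1 and 0.62 with Postn (n = 11), with adjusted exact permutation p-values of 0.40 to 0.52 over 12 relations. The corresponding rho values were 0.72, 0.74, 0.75 and 0.81, with adjusted exact permutation p-values of 0.084 for the first 3 and 0.052 for Postn. Without the 2 libraries farthest from the median of the factor, r was 0.62, 0.55, 0.83 and 0.85. Total counts and the number of features with reads had r values between −0.17 and 0.39 with the 4 genes, with adjusted exact permutation p-values of at least 0.52. Without the 2 libraries farthest from the median of the measure, r ran from −0.43 (Fn1) to 0.12 (Col3a1) for total counts and from −0.05 (Col1a1) to 0.61 (Postn) for features with reads. On library totals with no factor, the r of Col1a1 and Col3a1 was 0.96, and that of Col3a1 and Fn1 was 0.71 with an adjusted exact permutation p of 0.035.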

How the data were processed

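Right ventricular RNA of 6 vehicle and 5 monocrotaline libraries was measured by sequencing after ribosomal depletion, with a stranded kit, per the labels' protocols. StringTie, HISAT2, cutadapt, FastQC and bcl2fastq are listed in the submitters' processing notes; versions, build, annotation and strand setting were not given in the sources used here. Whole-number counts, not normalized, were what the authors deposited, for 37550 features: 29682 Ensembl IDs and 7868 assembled loci. Per the file headers, the authors' comparison table holds log2 fold changes and log2 CPM with p-values and FDR; its p-values were not used. Columns were matched by title, and 0 columns belonged to other samples. No library was a copy of another (lowest chi-square per degree of freedom 15.5 over 55 pairs). Reads shared with overlapping genes were not examined.

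The members and lists were chosen with earlier results of these data known. The IDs had 0 matches in the reference gene table, so the lists of other matrix genes and cell markers were not analysed. The named genes are the members and, by rule, the 2 Ensembl IDs of highest likeness. The plan counted 10 gene pairs; without Col1a2 there were 6.

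Counts were fitted with edgeR 4.0.16 in R 4.3.3 (quasi-likelihood, robust, TMM, filterByExpr with minimum count 10 and total 15), leaving 15099 features, with Benjamini-Hochberg adjustment at 0.05. SE was derived from the log2 fold change and its F statistic. Correlations used log2 CPM with a prior count of 2 and were computed in Python 3.11.15. Likeness is r with the mean of the standardized, group-centred values of the 4 genes. Libraries with reads in at most 25000 features are those of lower detection. Both steps were tested on simulated data. Alternatives were RLE (relative log expression) factors, upper quartile factors, TMM leaving out the 20 most abundant features, no factor, DESeq2 1.42.0, limma-voom (limma 3.58.1), no filter, a filter of 1 CPM in 5 libraries with a mean count of 50, an FDR of 0.01, each library left out, lower detection alone, a replicate block, a prior count of 0.5 and unlogged CPM. Depth gave at most 6.23% counting error for any value of the 4 genes.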

Additional observations from a re-analysis of the deposited data

How the results depend on the processing

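The log2 fold changes of the 4 genes stayed positive in all 22 alternatives, from 1.63 to 2.19 for Col1a1, 1.01 to 1.55 for Col3a1, 2.16 to 2.70 for Fn1 and 4.42 to 4.96 for Postn; 86 of 88 values were called, the exceptions being Col3a1 at an FDR of 0.01 and in the libraries of lower detection. The genes were chosen on this contrast, so this is no independent support. Library totals alone gave 3584 features higher and 979 lower, with the median log2 fold change at 0.21, no filter gave 971 lower, an FDR of 0.01 gave 905 higher and 582 lower, by construction, and the libraries of lower detection, with fewer samples, gave 1087 and 653. The cause of the other changes was not tested. Leaving out each library gave 1447 to 2409 higher, 1123 to 2410 lower, and a median r over the pairs of 0.51 to 0.79 around 0.66. The largest counts in both directions and the lowest median r came without monocrotaline replicate 4.

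Of 102 pair correlations under alternatives, 85 kept their side of the threshold, 13 lost it, 4 gained it and 0 turned. Only the 3 gene pairs that passed over the 11 libraries could lose it, and most of the losses were for Fn1 and Postn. With unlogged CPM, r was 0.91 for Col1a1 and Fn1 and 0.85 for Fn1 and Postn, with adjusted exact permutation p = 0.087 for each. Same-numbered libraries deviated with correlations of 0.06, −0.03, −0.21, 0.16 and −0.20. The labels do not say whether a shared number stands for anything else, and these values cannot decide it. With a replicate block on 10 libraries, 1348 features were higher and 1230 lower, against 1732 and 1441 without the block. In the block r was 0.95 for Col1a1 and Col3a1 over 5 pairs (exact permutation, adjusted p = 0.15), 0.59 for Col1a1 and Fn1 and 0.71 for Fn1 and Postn (adjusted p = 0.34 for each), with fewer values. For the other gene pairs it was 0.72 (Col1a1 and Postn), 0.65 (Col3a1 and Postn) and 0.34 (Col3a1 and Fn1). The smallest exact permutation p there is 0.0083, so a lone gene pair could not pass after adjustment over 6. In 16 groups of values examined, no library stood apart by Dixon's criterion. With 5 or 6 values in a group, only a gap that makes up most of the range is flagged. Postn in monocrotaline replicate 4, at 24.7% of the mean of the other monocrotaline libraries, was not flagged. The absence of flags therefore does not show that no library was extreme.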
